A study of Mus musculus with 6 samples.

Results

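The genes described here are 43 genes of the p53 pathway and of apoptosis, chosen by name: p53 and its relatives, its ubiquitin ligases and other regulators, the BCL2 family, death receptors, caspases, and the p53 targets of the sestrin, Gadd45, polo-like kinase and DNA repair groups. Of these, 40 had at least 1 array probe of their own, out of 20204 genes that had one in the whole table. Trp53 itself and the death protein Bax had no probe of their own and were not analysed here, and Ei24 was measured only by a probe it shared with Nop56. RNA came from purified pancreatic islets of male C57BL/6 mice aged 15 months, 3 wild-type samples and 3 samples from mTR-/-G4 mice, each labelled a, b and c. The mTR-/-G4 mice are null for the telomerase RNA in every cell and were bred without telomerase to the fourth generation, so the loss of telomerase and the short telomeres reached after those generations come together in this group, and a telomerase-null group with long telomeres was not part of the array comparison. Whole islets hold beta cells, other endocrine cells, vessels and remnants of exocrine tissue, so every value is a mixture over these cells. The study asked how islets with short telomeres differ in gene expression, and the genes below are those through which a damaged chromosome end would be read.

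A telomere that has become too short is handled by the cell as a broken DNA end. The damage kinases then stabilise p53, which raises the transcription of genes that stop the cell cycle, repair DNA or kill the cell. Death itself is carried out by BCL2 family proteins that open the mitochondrion, by membrane receptors, and by caspases. Much of p53 control acts on the stability of the protein, which an RNA measurement does not read.

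Values are log2 signals of 1 probe (a transcript cluster of the exon array), and a difference is the mean of the 3 mTR-/-G4 samples minus the mean of the 3 wild-type samples. Each gene is read from its brightest own probe unless another is named. A gene was called when it differed by more than 1.5-fold with an unadjusted p under 0.05 in limma, a linear model fitted over all 34502 probes, and adjusted p-values are Benjamini-Hochberg values over all probes. The samples correlated with each other at 0.970 to 0.989 within a genotype and at 0.951 to 0.984 between genotypes. Islet hormone and endocrine genes (16 of 18 listed had a probe) averaged 11.20, 11.34 and 11.23 in the wild-type samples a, b and c and 11.19, 11.03 and 11.17 in the mTR-/-G4 samples. Acinar genes (21 of 30) averaged 8.41, 7.60 and 7.50 in wild-type and 9.87, 9.29 and 8.93 in mTR-/-G4, with 18 of the 21 called higher and 1 lower. Endothelial genes (11 of 11) averaged 7.93, 7.62 and 7.37 against 7.41, 7.15 and 7.17, with 3 called lower. The part of these other cells in the results below was not tested, apart from a fit with the acinar mean as a covariate, and in whole islets fewer cells of a type and less RNA per cell cannot be told apart.

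Of the 40 measured genes, 2 were called higher in mTR-/-G4 islets and none lower. These were Gadd45b, a stress-induced protein that binds kinases of the MAP kinase cascades, and Eda2r, the receptor for ectodysplasin A2 and a p53 target. The 2 genes are 5% of the 40, beside 1.94% of all genes with a probe that were called higher. For lower calls the share was 0 of 40 beside 1.64% of all genes. Neither call was kept after adjustment, since 0 of the 40 genes, 0 of the 20204 genes and 1 of the 34502 probes had an adjusted p under 0.05 in limma (0.0029% of probes). Over all probes, 904 were called higher (2.62%) and 1244 lower (3.61%), and with each array centred on its median 523 were higher and 1695 lower. With no fold threshold, 6 of the 40 rose at an unadjusted p under 0.05 (15%, beside 14.2% of all genes) and 1 fell (2.5%, beside 7.96%). Together these 7 are 17.5%, beside 22.1% of all genes and 23% of all probes. The methods' t-test on the same values gave 5 and 1 at the same threshold, beside 11.7% and 7.49% of all genes, and none after adjustment. The median difference of the 40 genes was 0.06, with 21 above zero, beside a median of 0.10 over all genes, of which 63.4% were above zero. These 2 medians are not matched for brightness, and medians by brightness are given below. The shares with a p under 0.05 were thus within 1 percentage point of those of all genes for higher values and below them for lower values.

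**Figure D1:**
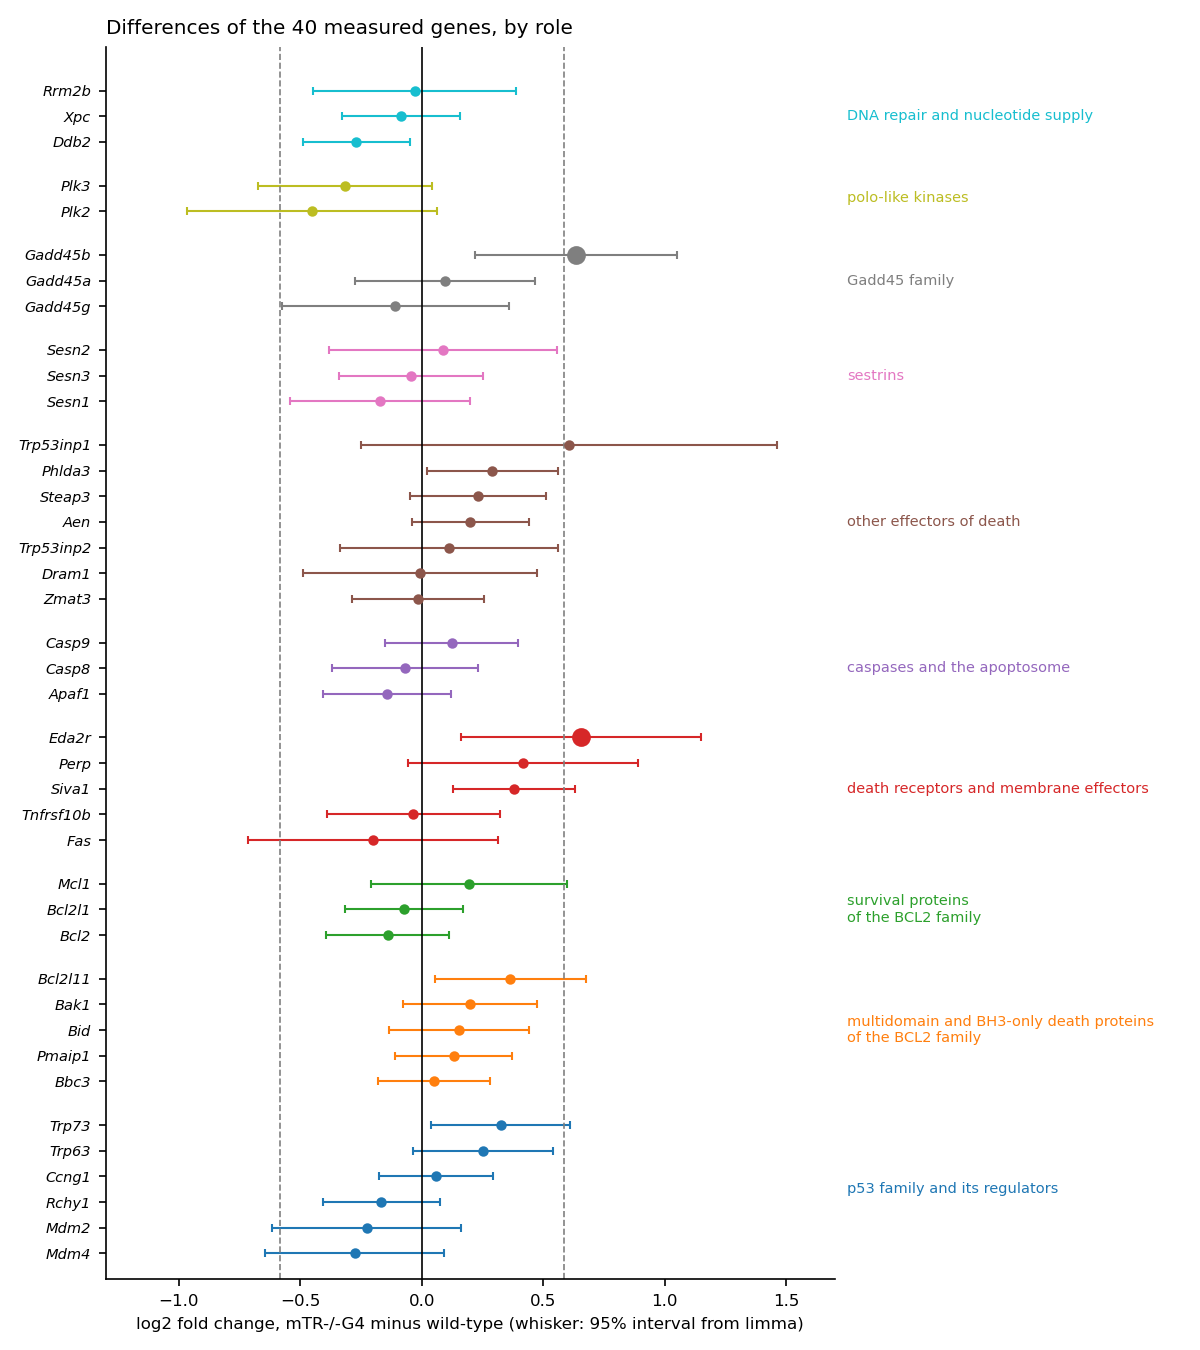
Difference between mTR-/-G4 and wild-type islets (log2, horizontal axis) for each of the 40 measured genes, grouped by role, with bars for the 95% confidence interval from limma, dashed lines at 1.5-fold and larger points for the 2 called genes. The points run from -0.45 (Plk2) to 0.66 (Eda2r), and most bars cross zero.

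The median standard error was 0.127 on the log2 scale, and for 27 of the 40 genes (67.5%, beside 63.5% of all genes) the whole 95% interval lay inside a 1.5-fold change in either direction. For these genes a 1.5-fold change in the mean signal of the mixed islet RNA lies outside the interval. The others, among them Perp, Plk2, Fas and Trp53inp1, have intervals that reach past 1.5-fold on at least 1 side.

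Eda2r was dim in every sample. The wild-type samples read 4.05, 4.06 and 3.96 and the mTR-/-G4 samples 4.70, 5.11 and 4.23. All 3 mTR-/-G4 samples lay above all 3 wild-type samples, with sample b highest and sample c closest to wild-type. The difference was 0.66 (standard error 0.21, 95% interval 0.16 to 1.15), or 1.58-fold, with an unadjusted p of 0.0163 and an adjusted p of 0.170 in limma. A second own probe of Eda2r read 4.14, 4.03 and 4.03 against 4.31, 4.57 and 4.42, a difference of 0.37 with an unadjusted p of 0.0107 in limma, which is below the fold threshold. The call of the brighter probe was lost without mTR-/-G4 sample b, where the difference was 0.44. Sample weights gave 0.22, also below the threshold. Dim probes as a class were higher in mTR-/-G4 islets, and Eda2r is among them.

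Gadd45b was among the brightest genes of the set. It read 7.82, 8.08 and 7.59 in wild-type and 8.66, 8.56 and 8.19 in mTR-/-G4. The groups did not overlap, and mTR-/-G4 samples a and b stood highest. The difference was 0.64 (standard error 0.18, 95% interval 0.22 to 1.05), or 1.55-fold, with an unadjusted p of 0.00831 and an adjusted p of 0.145 in limma. Without wild-type sample c the difference was 0.51 and without mTR-/-G4 sample a it was 0.54, both below the fold threshold. Neither paralog was called. Gadd45a, the family member known as a direct p53 target, differed by 0.10 (adjusted p = 0.703 in limma), and Gadd45g by -0.11 (adjusted p = 0.733 in limma). Centring each array on its median took Gadd45b to 0.54 and Eda2r to 0.56, and with the acinar mean as a covariate, which correlated with genotype at 0.886, they were 0.27 and 0.34. With sample weights Gadd45b was 0.33, and all of these are below the threshold.

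**Figure D2:**
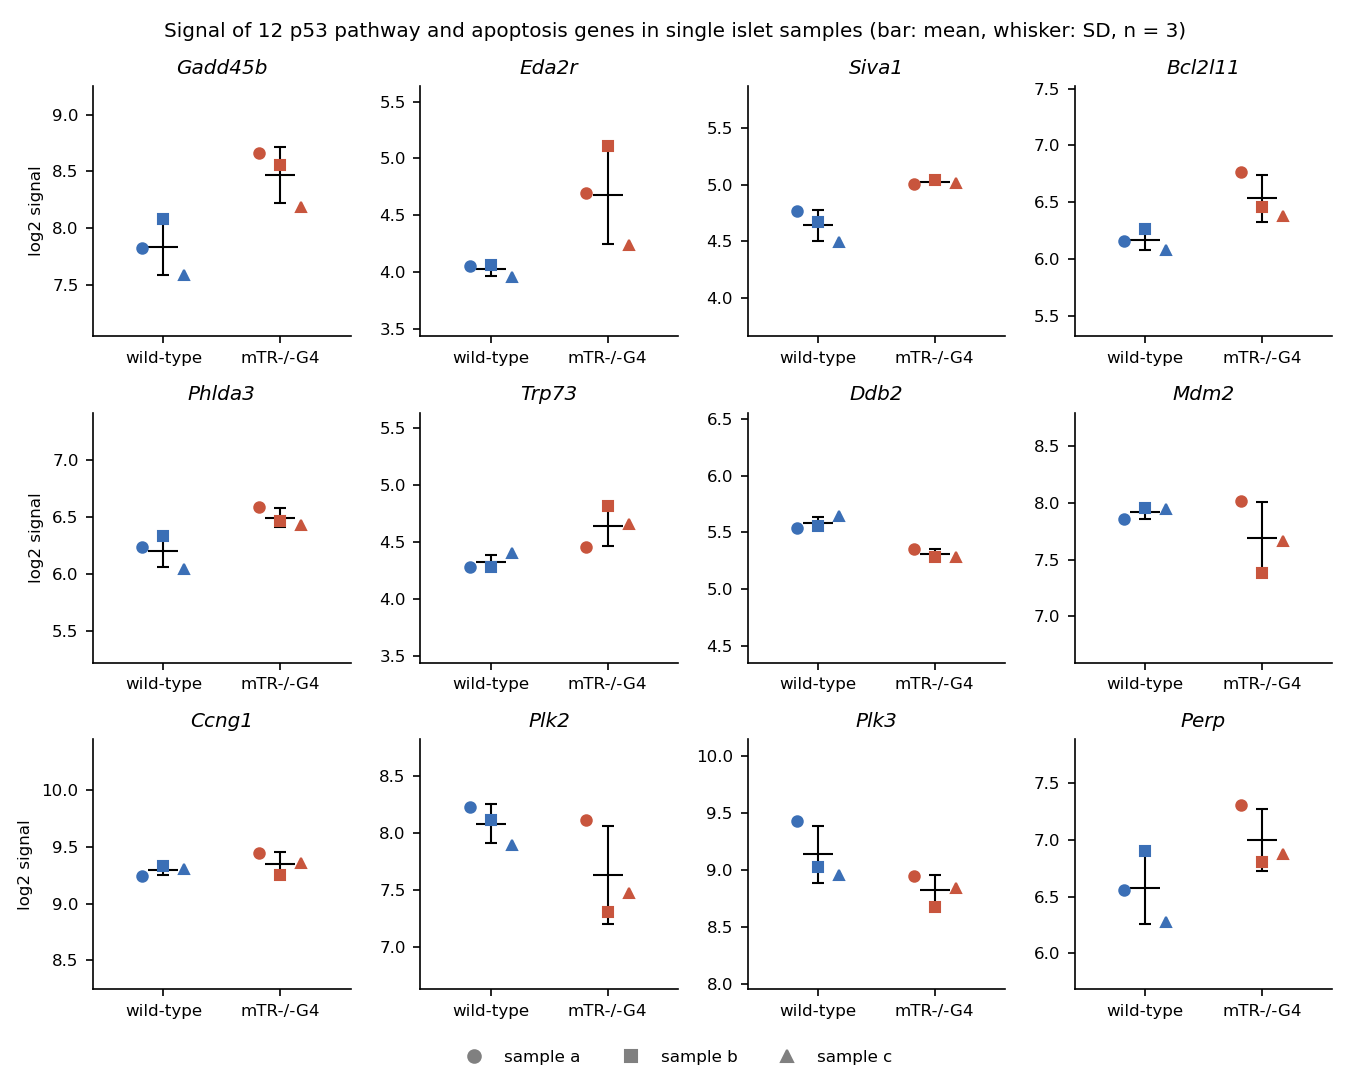
Log2 signal of selected genes in each of the 6 samples (points, with the mean and SD of each genotype), wild-type beside mTR-/-G4. Gadd45b and Eda2r separate the genotypes, and so do Siva1, Bcl2l11, Phlda3, Trp73, Ddb2 and Plk3, as did 37.2% of all genes. Eda2r stands at 3.96 to 4.06 in wild-type and 4.23 to 5.11 in mTR-/-G4.

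The promoters of the 2 called genes are shown because these are the genes whose RNA passed the threshold. Each is the RefSeq window of 300 bases, from 250 before to 50 after the annotated start, on mouse build GRCm38.p6, written 5′ to 3′ along the gene, with TATAAA in capitals.
Eda2r, chrX:97377160-97377459, minus strand: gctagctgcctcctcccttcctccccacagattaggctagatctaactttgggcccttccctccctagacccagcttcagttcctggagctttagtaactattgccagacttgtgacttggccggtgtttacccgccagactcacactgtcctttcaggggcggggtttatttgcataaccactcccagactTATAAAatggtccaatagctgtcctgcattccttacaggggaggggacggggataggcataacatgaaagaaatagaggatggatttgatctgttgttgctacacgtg
Gadd45b, chr10:80929841-80930140, plus strand: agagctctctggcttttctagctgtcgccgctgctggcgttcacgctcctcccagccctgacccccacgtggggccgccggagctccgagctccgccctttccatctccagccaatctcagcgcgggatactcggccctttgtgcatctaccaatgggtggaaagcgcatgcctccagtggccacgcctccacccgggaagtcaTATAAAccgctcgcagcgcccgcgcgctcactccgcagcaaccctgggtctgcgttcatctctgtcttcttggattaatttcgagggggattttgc

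The capitals stand 52 bases before the start in Eda2r and 40 bases before it in Gadd45b. TATAAA, searched on both strands, was in 13.6% of all 32851 promoter windows and in 4 of the 47 windows that the 43 genes had (8.51%), the others being those of Gadd45g and Trp53. Neither window held the p53 decamer, the unit of which a p53 element holds a pair, which says only that these letters are not in this window.

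Among the death receptors and membrane proteins, Siva1, an intracellular ligand of the TNF receptor CD27, rose at an unadjusted p under 0.05. Siva1 read 4.76, 4.67 and 4.49 in wild-type and 5.01, 5.04 and 5.01 in mTR-/-G4. The 3 mTR-/-G4 values were nearly the same and all above wild-type, a difference of 0.38 (standard error 0.11, unadjusted p = 0.00916, adjusted p = 0.149 in limma) that is under 1.5-fold. Perp, a tetraspan membrane protein of desmosomes with a role in p53-dependent death, read 6.56, 6.91 and 6.27 against 7.31, 6.80 and 6.88, and the groups overlapped (difference 0.42, adjusted p = 0.245 in limma). Tnfrsf10b, the receptor for TRAIL, differed by -0.04 (adjusted p = 0.887 in limma).

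Fas, the death receptor that p53 induces, read 5.91, 5.20 and 5.12 in wild-type and 5.32, 5.29 and 5.03 in mTR-/-G4. Wild-type sample a was the high one, and without it the difference turned from -0.20 to 0.05. Leukocyte genes (13 of 15 listed) averaged 5.93, 5.07 and 5.03 in wild-type and 5.33, 5.37 and 5.38 in mTR-/-G4, so that the same wild-type sample was the highest. Ptprc, the pan-leukocyte marker CD45, stood at 5.77 there and between 4.65 and 4.76 in the other 5 samples. Not every leukocyte gene was highest in that sample. Cd68 was highest in mTR-/-G4 sample a, and Cd3e and Itgam were highest in mTR-/-G4 sample b. The remaining measured leukocyte genes were highest in wild-type sample a. Dram1, a lysosomal protein that links p53 to autophagy, was also highest there, with 6.29 in wild-type sample a and 5.54 to 5.86 elsewhere. The part of leukocytes in the Fas and Dram1 values was not tested.

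In the p53 family and its regulators, no gene was called. Trp73 read 4.28, 4.28 and 4.40 in wild-type and 4.46, 4.82 and 4.66 in mTR-/-G4 (difference 0.32, unadjusted p = 0.0320, adjusted p = 0.195 in limma). Trp63 was as dim, at 4.15, 4.05 and 4.26 against 4.28, 4.59 and 4.34 (difference 0.25, adjusted p = 0.248 in limma). These paralogs of p53 both lie in the dim range where most probes were higher in mTR-/-G4. A second quantile normalization took the difference of Trp73 to 0.10.

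Mdm2, the ubiquitin ligase that degrades p53 and is itself one of its most regular targets, read 7.85, 7.95 and 7.94 in wild-type and 8.02, 7.38 and 7.67 in mTR-/-G4. The 3 wild-type samples were close together, and the mTR-/-G4 samples fell on both sides of them. The difference was -0.23 (95% interval -0.62 to 0.16, adjusted p = 0.387 in limma), and the upper end of that interval is under a 1.5-fold increase. Mdm4, which blocks the transactivation domain of p53, differed by -0.28 on its brightest probe (adjusted p = 0.293 in limma), while its 3 dimmer probes gave -0.17, 0.33 and -0.01. Rchy1, a ubiquitin ligase for p53, differed by -0.17 (adjusted p = 0.323 in limma). Ccng1, a p53 target that steers phosphatase 2A to Mdm2, was bright and read 9.24, 9.33 and 9.30 in wild-type and 9.44, 9.25 and 9.36 in mTR-/-G4, a difference of 0.06 with an interval of -0.18 to 0.29.

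The p53 decamer was found in promoter windows of 10 of the 43 genes, which had 47 windows for 34 genes. It was in 11 of those 47 windows (23.4%) beside 8.36% of all 32851 windows, searched on both strands. For the 7 genes of the 10 that had a probe, the 60 bases around the match are given 5′ to 3′ along the gene, from RefSeq on GRCm38.p6, with the decamer in capitals, so that the sequence can be set beside each gene's difference.
Aen, chr7:78895912-78895971, plus strand: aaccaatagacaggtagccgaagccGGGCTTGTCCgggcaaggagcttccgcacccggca
Ccng1, chr11:40755437-40755496, minus strand: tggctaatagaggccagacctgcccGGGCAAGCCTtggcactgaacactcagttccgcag
Gadd45a, chr6:67037413-67037472, minus strand: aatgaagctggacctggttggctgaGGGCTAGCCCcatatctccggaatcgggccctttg
Mdm2, chr10:117710910-117710969, minus strand: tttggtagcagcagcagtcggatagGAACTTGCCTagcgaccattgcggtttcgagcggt
Rchy1, chr5:91962612-91962671, minus strand: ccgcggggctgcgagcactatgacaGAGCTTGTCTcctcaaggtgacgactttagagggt
Sesn1, chr10:41887241-41887300, plus strand: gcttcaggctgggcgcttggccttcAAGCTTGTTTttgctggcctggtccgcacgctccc
Siva1, chr12:112644585-112644644, plus strand: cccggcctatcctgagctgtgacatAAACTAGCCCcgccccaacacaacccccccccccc

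These 7 genes had a median difference of 0.06, from -0.23 in Mdm2 to 0.38 in Siva1. The 24 measured genes with a window but no match had a median of 0.07. A match is a description of the sequence and was not tested for binding.

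None of the 5 measured death proteins of the BCL2 family was called. Bcl2l11, which encodes the BH3-only protein BIM, read 6.16, 6.27 and 6.08 in wild-type and 6.77, 6.46 and 6.38 in mTR-/-G4. The groups did not overlap, and the difference was 0.36 (unadjusted p = 0.0278, adjusted p = 0.190 in limma), below 1.5-fold. Bbc3, which encodes PUMA, a BH3-only protein strongly induced by p53, read 4.68, 4.59 and 4.73 against 4.69, 4.80 and 4.67, a difference of 0.05 with an interval of -0.18 to 0.28. Pmaip1, which encodes the BH3-only protein NOXA, read 4.56, 4.34 and 4.45 against 4.62, 4.59 and 4.54, a difference of 0.13 with an interval of -0.11 to 0.37. Both probes were dim, and their small differences changed sign under a second quantile normalization. Bak1, a pore-forming protein, and Bid, which is cut by caspase 8, differed by 0.20 and 0.15 (adjusted p = 0.304 and 0.425 in limma).

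The survival proteins, which hold the death proteins in check, had intervals on both sides of zero. Bcl2 read 5.97, 5.89 and 5.73 in wild-type and 5.80, 5.73 and 5.64 in mTR-/-G4 (difference -0.14, interval -0.39 to 0.11). Bcl2l1, which encodes BCL-XL, differed by -0.07 and Mcl1 by 0.19 (adjusted p = 0.653 and 0.467 in limma). Apaf1, the scaffold of the apoptosome, differed by -0.14 (interval -0.40 to 0.12), its caspase Casp9 by 0.12, and Casp8, the caspase of the death receptors, by -0.07 (interval -0.37 to 0.23). None of these 6 genes had an unadjusted p under 0.05 in limma.

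Phlda3, a p53 target that holds back Akt at the membrane, was the clearest of the remaining effectors. It read 6.24, 6.33 and 6.05 in wild-type and 6.59, 6.46 and 6.43 in mTR-/-G4 (difference 0.29, unadjusted p = 0.0378, adjusted p = 0.203 in limma), with no overlap. Aen, an exonuclease that p53 induces, gave 5.51, 5.39 and 5.56 against 5.77, 5.67 and 5.62 on its brightest probe (difference 0.20, adjusted p = 0.261 in limma). Its dimmer probe read 5.19, 4.93 and 5.02 against 5.47, 5.54 and 5.62, a difference of 0.50 (unadjusted p = 0.00257, adjusted p = 0.116 in limma), or 1.41-fold. Steap3, an iron reductase of endosomes, differed by 0.23 (adjusted p = 0.264 in limma). Zmat3, an RNA-binding protein that p53 induces, differed by -0.01 (interval -0.29 to 0.26). The probe shared by Ei24 and Nop56 differed by 0.15 (adjusted p = 0.326 in limma).

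Trp53inp1, a nuclear partner of p53 that promotes its phosphorylation, had a large difference that rested on 1 sample. It read 8.05, 7.82 and 7.55 in wild-type and 9.31, 7.95 and 7.99 in mTR-/-G4, so sample a was more than a log2 unit above the others. The difference was 0.61 (standard error 0.36, adjusted p = 0.311 in limma) and 0.16 without that sample, and it turned to -0.83 with the acinar covariate. Trp53inp2, its relative in autophagy, was likewise highest there, at 10.48 against 9.79 to 10.09 in the other 5 samples, and so was Gadd45g, at 7.63 against 6.89 to 7.45.

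Genes of the ER stress and integrated stress response (15 of 15 measured) averaged 8.40, 8.37 and 8.37 in wild-type and 9.14, 8.31 and 8.39 in mTR-/-G4. Ddit3, the stress factor CHOP, read 8.88 in mTR-/-G4 sample a and 6.47 to 6.82 in the others. Immediate early genes (19 of 20) averaged 8.06, 7.60 and 7.50 in wild-type and 9.08, 7.95 and 7.59 in mTR-/-G4, again highest in that sample. No gene of either list was called, while 8 immediate early and 3 stress response genes were called higher without mTR-/-G4 sample c. Atf3 is on both lists and is counted in both numbers. Over all probes, the fit without that sample called 1163 higher, beside 904 with every sample kept. The part of the change in immediate early and stress response genes in the p53 pathway values was not tested.

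**Figure D3:**
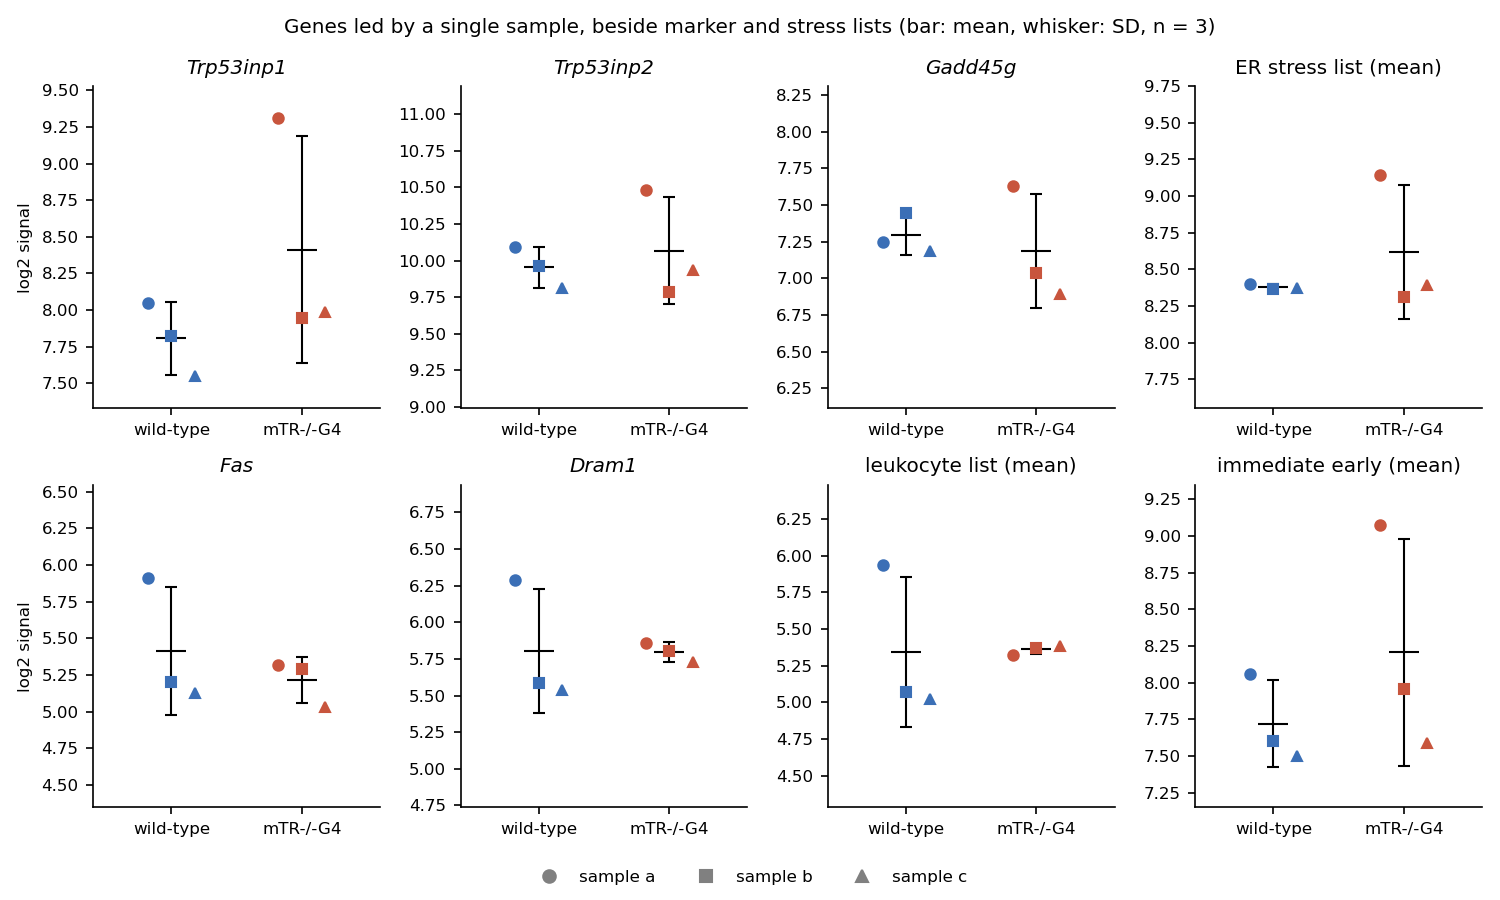
Log2 signal in each of the 6 samples for genes that stand out in 1 sample, beside the mean of the gene list that stands out in the same one. Trp53inp1 reaches 9.31 in mTR-/-G4 sample a against 7.55 to 8.05 elsewhere, and Fas 5.91 in wild-type sample a.

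Samples differed in how often they held the extreme value. Sample a of mTR-/-G4 was the highest of the 6 samples for 19 of the 40 genes (47.5%, beside 13.4% of all genes) and the lowest for none (beside 7.59% of all genes). Among genes brighter than the median probe it was highest for 18 of 32 (56.2%), beside 19.4% of the 11035 genes there. These shares describe 6 samples and were not tested. Sample b of mTR-/-G4 was lowest for 12 of the 40 (30%, beside 27.1%) and highest for 7 (17.5%, beside 39.1%). Among the 32 brighter genes it was lowest for 12 (37.5%, beside 47.5%) and highest for 0 (beside 11.2%). Wild-type sample c was lowest for 15 (37.5%, beside 22.6%). The median difference of the 40 genes was -0.02 when sample a was left out and 0.10 when sample b was left out.

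The sestrins dampen mTORC1 and are p53 targets. Sesn1 and Sesn3 differed by -0.17 and -0.04 (adjusted p = 0.480 and 0.832 in limma). Sesn2, the sestrin also induced by the integrated stress response, depended on the probe. Its brightest probe read 6.75, 7.55 and 7.24 in wild-type and 7.34, 7.16 and 7.30 in mTR-/-G4 (difference 0.09, adjusted p = 0.788 in limma). A dim probe of the same gene read 4.26, 4.40 and 4.62 against 5.16, 4.85 and 5.54, with no overlap and a difference of 0.76 (standard error 0.19, unadjusted p = 0.00511, adjusted p = 0.130 in limma). At 1.69-fold this probe passed the threshold, though Sesn2 is not counted as called because its brightest probe did not pass. It lies in the second dimmest of 4 signal bins, where 83.4% of all probes were above zero. The other 3 probes gave 0.25, 0.59 and 0.09, the second of these carried by mTR-/-G4 sample b at 5.31.

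**Figure D4:**
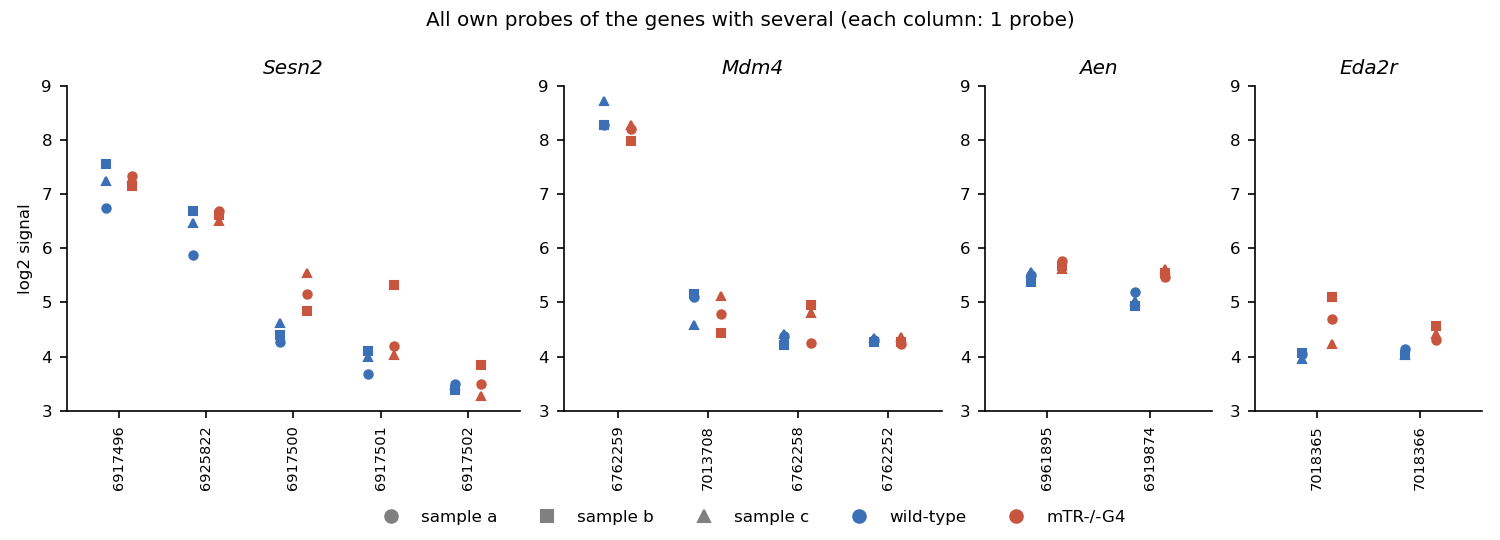
Log2 signal in each sample for every own probe of the genes that had more than 1 (Sesn2, Mdm4, Aen and Eda2r), wild-type beside mTR-/-G4. The Sesn2 probe with a difference of 0.76 lies more than a log2 unit below the brightest Sesn2 probe, whose difference was 0.09.

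The polo-like kinases Plk2 and Plk3, stress-inducible kinases that p53 can raise, were lower in mean without passing the test. Plk2 read 8.23, 8.11 and 7.90 in wild-type and 8.12, 7.30 and 7.47 in mTR-/-G4, a difference of -0.45 (adjusted p = 0.246 in limma) with mTR-/-G4 sample a inside the wild-type range. Plk3 read 9.43, 9.03 and 8.96 against 8.94, 8.67 and 8.85, a difference of -0.32 (adjusted p = 0.246 in limma) with no overlap.

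Of the repair genes, Ddb2, which recognises ultraviolet lesions for nucleotide excision repair and is a p53 target, fell. It read 5.54, 5.56 and 5.64 in wild-type and 5.36, 5.29 and 5.28 in mTR-/-G4 (difference -0.27, standard error 0.093, unadjusted p = 0.0228, adjusted p = 0.183 in limma), with no overlap and under 1.5-fold. Its partner in lesion recognition Xpc differed by -0.08 and Rrm2b, the p53-induced subunit of ribonucleotide reductase, by -0.03 (adjusted p = 0.599 and 0.921 in limma).

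The samples of the genotypes did not overlap in 12 of the 40 genes (30%, beside 37.2% of all genes and 35.2% of all probes). In 8 of the 40 genes every mTR-/-G4 sample was above every wild-type sample (20%, beside 25% of all genes), and in 4 every one was below (10%, beside 12.2%). The 8 were Eda2r, Gadd45b, Siva1, Bcl2l11, Trp73, Phlda3, Trp63 and Aen. The 4 were Plk3, Mdm4, Ddb2 and Rchy1.

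Dim probes were more often higher in mTR-/-G4 islets than bright ones. Over all probes, split into 4 bins of equal size by mean signal, the dimmest bin had a median difference of 0.22 with 89.2% above zero, the next 0.21 with 83.4%, the third -0.01 with 48.0% and the brightest -0.11 with 34.1%. The 40 genes fell 1, 7, 17 and 15 into these bins, with median differences of 0.25, 0.23, -0.03 and -0.04. All 8 in the 2 dimmer bins were above zero, against 6 of 17 and 7 of 15 in the brighter ones. The spread of signal over an array (interquartile range) was 2.66, 2.79 and 2.63 in wild-type and 2.56, 2.05 and 2.42 in mTR-/-G4, narrowest in mTR-/-G4 sample b. Eda2r, Siva1, Trp73 and Trp63 are among the 8 dim genes. The part of this narrower spread in their differences was not tested beyond a second quantile normalization, under which Eda2r was 0.45 and below the threshold while Gadd45b was still called. Trp73 was 0.10 under that normalization (unadjusted p = 0.218 in limma).

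**Figure D5:**
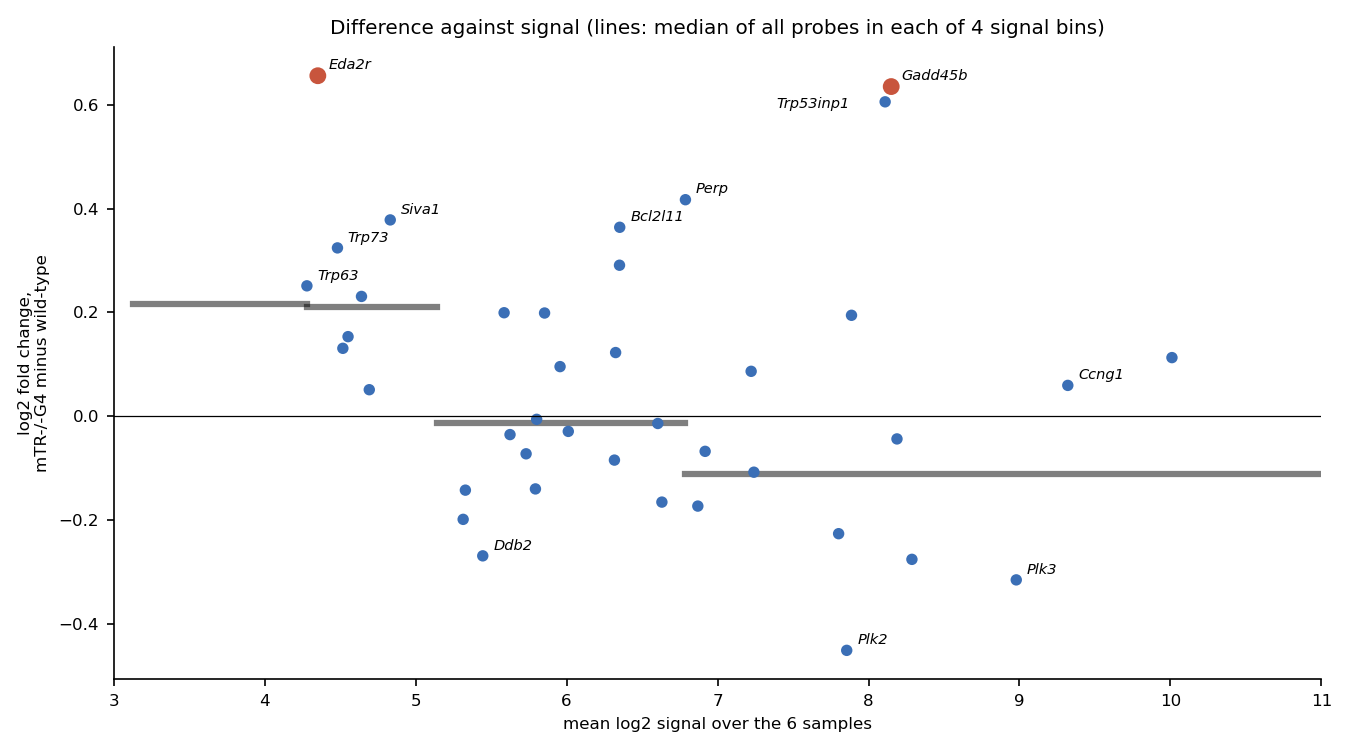
Difference between mTR-/-G4 and wild-type (log2, vertical axis) against mean log2 signal (horizontal axis) for the 40 genes (points, the 2 called genes in red), with grey lines for the median of all probes in each of 4 signal bins. The lines stand at 0.22 and 0.21 in the 2 dimmer bins and at -0.11 in the brightest, and all 8 genes in the dimmer bins lie above zero.

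Other genes of the same pathways were taken as lists. Of 33 measured further p53 targets (37 listed), none was called and 4 had an unadjusted p under 0.05 in limma (3 in the methods' t-test), beside 22.1% of all genes, with a median of 0.06. Cdkn1a, the cell cycle inhibitor p21 and the standard readout of p53, read 7.67, 7.44 and 7.36 in wild-type and 8.73, 7.89 and 7.57 in mTR-/-G4. Its difference was 0.57 (standard error 0.28, adjusted p = 0.254 in limma), highest in sample a. It was 0.23 without that sample and 0.81, past the threshold, without mTR-/-G4 sample c. A second quantile normalization gave 0.70, also past the threshold, and the acinar covariate turned it to -0.59. Of 15 further BCL2 family genes (18 listed), none was called and 3 had an unadjusted p under 0.05 in limma (3 in the methods' t-test), beside the same 22.1%. Bok, a pore-forming relative of Bax, had the smallest p of these 3. It was 4.87, 4.87 and 4.85 against 5.33, 5.41 and 5.34, a difference of 0.50 (unadjusted p = 0.000867, adjusted p = 0.0933 in limma), below 1.5-fold. The others were Bmf, which rose by 0.34, and Bcl2l2, which differed by -0.46 (unadjusted p = 0.0209 and 0.0317 in limma). Bok and Bmf lie in the second dimmest bin, where 83.4% of all probes were above zero.

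Of 33 further caspases, adaptors and inhibitors (39 listed), 3 were called and all were lower in mTR-/-G4, beside 1.64% of all genes called lower. Xiap, which blocks active caspases, read 6.37, 6.54 and 6.69 in wild-type and 5.97, 5.60 and 5.97 in mTR-/-G4 (difference -0.69, unadjusted p = 0.00201, adjusted p = 0.110 in limma). Cflar, the decoy of caspase 8, read 7.89, 7.51 and 7.15 against 6.94, 6.41 and 7.12 (difference -0.69, adjusted p = 0.184 in limma). Tnfsf10, the ligand TRAIL, read 7.80, 7.71 and 7.10 in wild-type and 6.65 to 7.01 in mTR-/-G4 (difference -0.65, adjusted p = 0.167 in limma). No gene of the 3 overlapped between genotypes, although Cflar and Tnfsf10 came close at wild-type sample c and mTR-/-G4 sample c. Of the 11 endothelial genes, the called ones, Kdr, Tek and Flt1, fell over the same samples by 0.66, 0.70 and 0.71. The 11 had a median difference of -0.41. Pecam1 and Cdh5 differed by -0.20 and -0.28 (adjusted p = 0.516 and 0.383 in limma), and Cldn5 by 0.21. The part of vessels in the calls of Xiap, Cflar and Tnfsf10 was not tested. Without mTR-/-G4 sample b all 3 calls were lost, at -0.57 for Xiap, -0.49 for Cflar and -0.54 for Tnfsf10. Those of Cflar and Tnfsf10 were also lost without wild-type sample a (-0.51 and -0.52), without wild-type sample b (-0.70 and -0.57), in the methods' t-test, with a second quantile normalization (-0.58 and -0.54) and with the mean of all own probes (-0.37 and -0.25). With sample weights Xiap (-0.55) and Cflar (-0.46) were not called, and with the acinar covariate neither Xiap (-0.49) nor Cflar (-1.17) was.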

How the data were processed

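RNA from 6 islet samples was hybridised to Affymetrix Mouse Exon 1.0 ST arrays. The authors normalized the arrays by RMA in Partek, and the deposited values are log2 signals of 34502 transcript clusters, on build mm9 per the submitters' processing notes. Of these probes, 25362 have 1 gene symbol in the platform annotation, 2238 have several and 6902 none, and genes were named only from the first kind. RMA corrects background and sets all arrays to 1 distribution of probe signals before summarising. The deposited transcript cluster values still differed in spread between arrays, with interquartile ranges of 2.05 to 2.79. Arrays carry no read depth, and the number of arrays limits the precision.

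Differences were tested with limma 3.58.1 in R 4.3.3 (lmFit and eBayes, 3 samples against 3, all probes), with Benjamini-Hochberg adjustment over all probes. The script was tested on simulated data. A call was more than 1.5-fold at an unadjusted p under 0.05, as in the study's methods. The labels do not say whether the samples of a genotype came from separate mice, although the study's legend describes them so, and p-values measure the spread between these samples. A 3 against 3 permutation cannot give a p below 0.1. The genes and lists, and those named in the text (calls, unadjusted p under 0.05, and the regulators and effectors described by role), were chosen with earlier results of these data known. Alternatives were another test, normalization, filter, threshold, probe rule, sample weights, a replicate block, an acinar covariate and leaving out each sample.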

Additional observations from a re-analysis of the deposited data

How the results depend on the processing

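The count of genes called higher was 2 and that of genes called lower was 0. The higher count was 1 (Gadd45b) with the methods' t-test, a second quantile normalization, probes brighter than the median or the mean of all own probes. It was 0 with each array centred on its median, a 2-fold threshold, sample weights or the acinar covariate, and 6 with no fold threshold. The lower count was 1 with no fold threshold (Ddb2) or sample weights (Plk2) and 3 with the acinar covariate (Fas, Plk2 and Plk3). Leaving out 1 sample at a time gave 1 to 2 higher and 0 to 1 lower, beside 577 to 1833 and 908 to 1649 of all probes. The labels do not say whether same-letter samples are pairs. Their deviations over all probes correlated at 0.043, -0.16 and 0.11 for a, b and c. With 3 samples a group this does not settle whether the letters are pairs. Of the gene lists above, the acinar, immediate early and further p53 target means fell from a to c in both genotypes, and the others did not. Means of duct genes, not described above, also fell, with 5.52, 5.26 and 4.94 in wild-type and 5.77, 5.70 and 5.34 in mTR-/-G4. So did those of fibroblast and stellate genes, with 6.22, 5.99 and 5.42 in wild-type and 6.18, 5.97 and 5.67 in mTR-/-G4. A fit with the letter as a replicate block called 3 genes higher (Eda2r, Gadd45b and Trp53inp1), beside 1013 of all probes. Centring moved the median difference of all probes from 0.10 to 0.0066 and that of the 40 genes from 0.06 to -0.04.

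Some differences changed sign, those of Trp53inp1 and Cdkn1a among the larger ones. A second quantile normalization gave -0.16 for Bbc3, -0.091 for Pmaip1, 0.048 for Casp8 and 0.087 for Zmat3. Centring gave -0.039 for Ccng1, -0.047 for Bbc3 and -0.012 for Sesn2. Sample weights gave 0.022 for Zmat3 and 0.10 for Bad. The acinar covariate gave -0.078 for Pmaip1, -0.83 for Trp53inp1, -0.59 for Cdkn1a and 0.15 for Bad, and the mean of all own probes gave 0.089 for Bad, whose main difference was -0.09. Leaving out 1 sample moved Fas from -0.34 to 0.051, Zmat3 from -0.089 to 0.075 and Sesn2 from -0.13 to 0.27. The cause was not tested. Cdkn1a was called with a second quantile normalization (0.70) and without mTR-/-G4 sample c (0.81). Over all probes the counts were 904 higher and 1244 lower, 523 and 1695 with centred arrays, 577 and 908 without mTR-/-G4 sample b, and 1833 and 1649 without mTR-/-G4 sample a. The immediate early list had 0 calls, 8 higher without mTR-/-G4 sample c, 6 higher with the replicate block and 9 lower with the acinar covariate. Over all probes, these 3 fits called 1163 higher, 1013 higher and 1035 lower. The dim Sesn2 probe was below the fold threshold under a second quantile normalization (0.55) and without mTR-/-G4 sample c (0.58).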
